A study of Mus musculus with 2 samples.

Results

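The prostaglandin and leukotriene genes described here are 10 genes named by symbol, of 55536 Ensembl genes in the deposited gene tables. They are Pla2g4a, Pla2g7, Ptgs1, Ptgs2, Ptges, Tbxas1, Alox5, Alox5ap, Ptger2 and Ptger4. The rule that picks them lists symbols and holds no measured value. The RNA was nuclear, from primary macrophages grown out of the bone marrow of C57BL/6J mice, with no modified allele named in the labels. It was depleted of ribosomal RNA before sequencing. The cells had been given 100 ng/ml Lipid A, the TLR4-activating part of bacterial lipopolysaccharide, for 12 h, were washed and left for 12 h, and then received 100 ng/ml Lipid A for 20 min. The single group held 2 libraries, biological replicates 1 and 2, with 1 donor label between them. No age was recorded, and the labels do not say whether the replicates are separate animals or cultures. Untreated cells were not analysed here, so no level below has a baseline and none can be called induced or repressed.

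Eicosanoids are short-lived lipid signals made from arachidonic acid, which phospholipases free from membranes. Cyclooxygenases turn the acid into prostaglandin H2, which terminal synthases convert into prostaglandin E2, prostaglandin D2, prostacyclin or thromboxane A2, while 5-lipoxygenase and its activating protein FLAP open the leukotriene branch. In macrophages the inducible cyclooxygenase COX-2 and the prostaglandin E synthase mPGES-1 are textbook targets of lipopolysaccharide, and prostaglandin E2 acts back on these cells through the EP2 and EP4 receptors, which raise cyclic AMP.

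The libraries held 21954179 and 17739520 expected counts in genes, where a count of 0 allows up to 0.137 and 0.169 CPM (counts scaled to the library total). The labels record 1 µg of starting RNA in replicate 1 but 500 ng in replicate 2, so input and replicate cannot be told apart. Levels are given in TPM, which are counts divided by effective transcript length and brought to a common total. With 1 library on each side there is no test between replicates. Intervals on counts cover counting error alone.

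Transcripts of all 10 genes were counted in both libraries, and 9 of the 10 reached 1 TPM in each. The same level was reached by 21.2% of all genes and by 43.7% of protein-coding genes. The exception was Alox5. Thromboxane synthase (Tbxas1) and FLAP (Alox5ap) lay at the top, at percentiles 90.2 and 85.9 of the protein-coding genes with a mean of 1 TPM or more, while the cyclooxygenases Ptgs2 and Ptgs1 lay at percentiles 38.3 and 20.3. From the highest mean to the lowest the order was Tbxas1, Alox5ap, Pla2g7, Ptger4, Pla2g4a, Ptgs2, Ptger2, Ptgs1, Ptges and Alox5, a span of 56.8-fold. In this order the ranges of Pla2g4a and Ptgs2, of Ptgs2 and Ptger2, and of Ptgs1 and Ptges overlapped between libraries, and the first and last of these pairs changed places from one library to the other. The remaining neighbours kept apart in both libraries on this scale. In a further transcript table made from the reads, Ptger4 lay below Pla2g4a in both, at 2.94 and 8.04 against 3.41 and 12.6 TPM. The other remaining neighbours kept their order there. In replicate 2 of that table Ptgs2 exceeded Pla2g7, at 10.5 against 8.81 TPM. In bulk RNA, fewer cells that express a gene and less RNA of it per cell cannot be told apart.

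**Figure D1:**
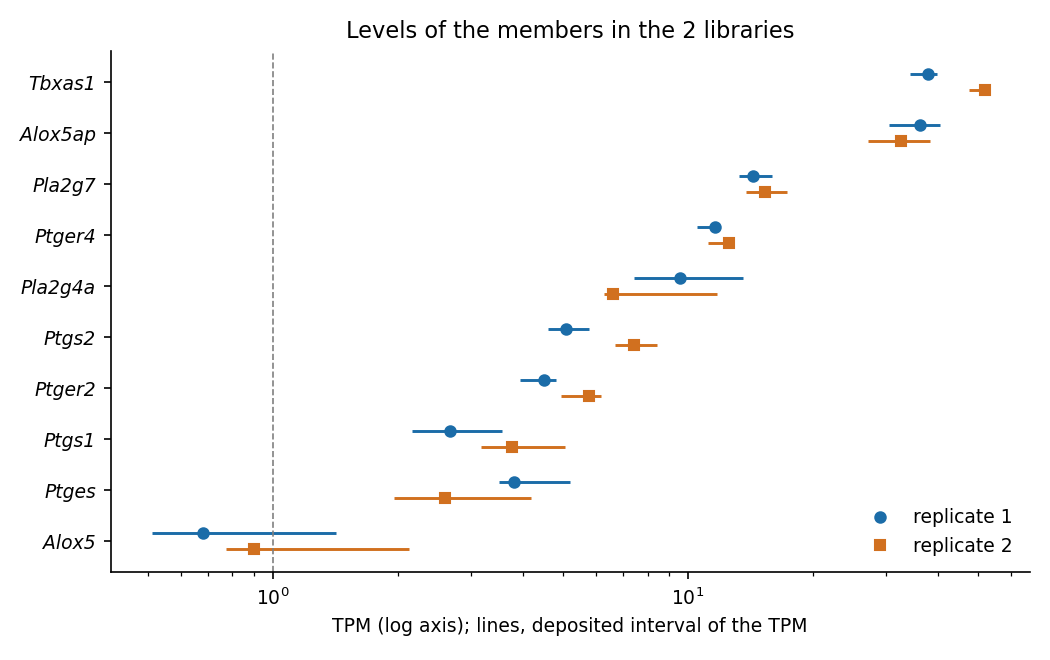
TPM of each of the 10 genes on a log axis, with circles for replicate 1, squares for replicate 2 and lines for the interval that the deposited tables give around each TPM. Tbxas1 lies highest at 37.9 and 51.9 TPM and Alox5 lowest at 0.68 and 0.90 TPM, left of the dashed line at 1 TPM.

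Pla2g4a encodes cytosolic phospholipase A2 alpha, which cuts arachidonic acid out of membrane phospholipids. The gene (ENSMUSG00000056220.14) lies on chromosome 1 at 149829618 to 149961290 of mm10, minus strand, and spans 131673 bases. Its level was 9.59 TPM in replicate 1 against 6.61 TPM in replicate 2, a mean of 8.10 ± 2.11 (SD, n = 2). Replicate 1 was the higher library, while the deposited TPM intervals, 7.42 to 13.6 and 6.27 to 11.7, overlapped. The expected counts were 547 and 359. Their CPM ratio, replicate 2 over replicate 1, was 0.812 with a 95% interval of 0.709 to 0.930. Part of the TPM of replicate 1 rested on few reads. The short processed transcript Pla2g4a-205 held 27.6% of the gene's TPM there, 2.65 TPM, from 9.82 counts, and 0 counts in replicate 2. In the read-based transcript table, whose TPM ran higher in replicate 2 for all 10 genes, Pla2g4a had 3.41 and 12.6 TPM. Relative to the median gene this was a log2 difference of 0.34, against -0.77 from the alignment-based table. There 60.3% of the replicate 2 value sat in Pla2g4a-203, a transcript of 247 bases with 0 counts in the alignment-based table.

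Pla2g7 encodes the secreted phospholipase that breaks down platelet-activating factor. It lies on chromosome 17 at 43568098 to 43612201, plus strand (ENSMUSG00000023913.17). Its levels were 14.4 TPM in replicate 1 and 15.4 TPM in replicate 2, or 14.9 ± 0.679 (SD, n = 2). The libraries were close in TPM, with overlapping deposited intervals, although the expected counts of 730.84 and 472 gave a CPM ratio of 0.799 (95% interval 0.710 to 0.898). The effective length assigned to the gene was 1697 bases in replicate 1 and 1502 in replicate 2. Within each library Pla2g7 exceeded Pla2g4a, by 1.50-fold and 2.32-fold in TPM. That order did not hold in the read-based table, where the ratio was 1.13 in replicate 1 and 0.701 in replicate 2. An antisense gene, 1700071M16Rik, shares 319 exon bases with Pla2g7 and had 1.88 and 2.60 TPM. The sources used here do not give the strand setting of the counting, so reads of the shared bases cannot be told apart.

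Ptgs1 encodes COX-1, the cyclooxygenase present in most resting tissues, and Ptgs2 encodes COX-2. Ptgs2 (ENSMUSG00000032487.8, chromosome 1, 150100031 to 150108227, plus strand) stood at 5.09 TPM in replicate 1 against 7.44 TPM in replicate 2, a mean of 6.27 ± 1.66 (SD, n = 2). Replicate 2 was higher, and the deposited intervals, 4.60 to 5.79 and 6.67 to 8.44, did not overlap. Expected counts were 646 and 645, a CPM ratio of 1.24 (95% interval 1.11 to 1.38). Ptgs1 (ENSMUSG00000047250.13, chromosome 2, 36230426 to 36252272, plus strand) had 2.67 and 3.77 TPM, or 3.22 ± 0.778 (SD, n = 2), from 134 and 146 counts. Replicate 2 was again the higher library, with overlapping deposited intervals and a CPM ratio of 1.35 (95% interval 1.06 to 1.72). Ptgs2 thus stood above Ptgs1 by 1.91-fold in replicate 1 and 1.97-fold in replicate 2. The read-based table gave the same order, at 3.06-fold and 3.69-fold.

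Ptgs2 and Pla2g4a are neighbours, 138740 bases apart. Ptgs2os, a non-coding gene read in the other direction from the opposite strand, starts 67 bases upstream of Ptgs2. It had 0.13 TPM in both libraries, from 7 and 5 counts. Ptgs2os2, a long non-coding RNA on the other side of Ptgs2, had 0.15 and 0.16 TPM. Both lay far below Ptgs2 itself in either library.

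The 250 bases before the gene starts of the 2 cyclooxygenase genes are shown because the pair differed in level within each library and because the Ptgs2 stretch also carries the start of Ptgs2os. They come from RefSeq promoters on GRCm38.p6 and read 5′ to 3′ on the plus strand, with motif matches in capitals. The Ptgs1 stretch is chr2:36230176-36230425 and the Ptgs2 stretch is chr1:150099781-150100030.
Ptgs1: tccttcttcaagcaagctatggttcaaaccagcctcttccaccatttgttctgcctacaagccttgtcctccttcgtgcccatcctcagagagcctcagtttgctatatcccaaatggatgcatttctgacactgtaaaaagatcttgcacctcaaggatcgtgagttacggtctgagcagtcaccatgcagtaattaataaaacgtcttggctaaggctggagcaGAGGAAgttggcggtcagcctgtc
Ptgs2: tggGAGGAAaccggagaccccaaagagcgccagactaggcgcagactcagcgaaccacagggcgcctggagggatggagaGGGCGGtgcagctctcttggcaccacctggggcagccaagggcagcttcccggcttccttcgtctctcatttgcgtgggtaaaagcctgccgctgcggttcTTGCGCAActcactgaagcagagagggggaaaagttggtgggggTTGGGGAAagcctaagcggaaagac

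In Ptgs1 the capitals mark GAGGAA, the core bound by the myeloid factor PU.1, 24 bases before the gene start. In Ptgs2 they mark GAGGAA at 247 bases, the GC box GGGCGG at 170, and matches to the C/EBP motif TTNNGNAA at 69 (TTGCGCAA, the same on both strands) and at 25 (TTGGGGAA). On either strand GAGGAA occurs in 23.3% of the 32851 RefSeq promoter windows of this length, GGGCGG in 32.7% and TTNNGNAA in 36.8%. The G+C content was 48.0% for Ptgs1 and 61.6% for Ptgs2, beside a median of 52.4%. No match in these 250 bases was found for CRE (TGACGTCA), its first bases TGACG, the E-box CACGTG, NF-kB (GGNNNTTCC) or an ISRE core (GAAANNGAA). This held for all 9 members with a RefSeq window. Alox5ap had no such window. In the order named, these motifs occur in 1.55%, 17.8%, 6.02%, 15.7% and 7.13% of all RefSeq windows of this length. Whether their absence in the 9 members differs from these shares was not tested. Just after the annotated start of Ptgs2, however, TGACG on the minus strand and CACGTG lie side by side, 13 and 16 bases downstream. The 20-base windows around them, chr1:150100037-150100056 and chr1:150100040-150100059, are printed to show this overlap, with the match in capitals.
Ptgs2 TGACG (minus strand): accactaCGTCAcgtggagt
Ptgs2 CACGTG: actacgtCACGTGgagtccg

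Within 300 bases that include the first 50 of the gene, TGACG occurs in 20.8% and CACGTG in 7.15% of RefSeq windows. Of the 9 members, Ptgs2 was the one with either match. A match is a description of letters and was not tied to any binding data here.

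Ptges encodes mPGES-1, which makes prostaglandin E2. The gene (ENSMUSG00000050737.13) lies on chromosome 2 at 30889471 to 30929863, minus strand. Its level was 3.81 TPM in the first library against 2.60 TPM in the other, or 3.21 ± 0.856 (SD, n = 2), with overlapping deposited intervals. The counts were further apart, 358 against 98, and their CPM ratio of 0.339 (95% interval 0.268 to 0.425) was the lowest of the 10 genes. Replicate 1 was the higher library on both scales. The gap between the scales moved with the transcript that reads were given to. The 3647-base coding transcript Ptges-202 held 90.4% of the TPM in replicate 1 and 46.2% in replicate 2. Ptges-201, a processed transcript of 703 bases, held 0 and 53.8%, so the effective length of the gene was 3136 bases in one library and 1844 in the other. In replicate 2 the Ptges-201 share rested on 13.9 counts. The size of the shift depended on the measure. By expected counts the coding share was 99.0% and 85.8%, and in the read-based table Ptges-202 held 36.1% and 29.6%.

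Tbxas1 encodes thromboxane A synthase, a cytochrome P450 enzyme known from platelets and macrophages. It is the longest of the 10 genes (ENSMUSG00000029925.13, chromosome 6, 38875404 to 39084585, plus strand, 209182 bases). Its 37.9 TPM in replicate 1 and 51.9 TPM in replicate 2, from 2641 and 2874 counts, gave 44.9 ± 9.91 (SD, n = 2). Replicate 2 was higher, with deposited intervals that did not overlap and a CPM ratio of 1.35 (95% interval 1.28 to 1.42). Tbxas1 exceeded Ptges 9.94-fold in replicate 1 and 19.9-fold in replicate 2. Among 7 annotated transcripts, the 3 of type retained intron, which keep intron sequence and are not annotated as coding, held 55.5% of the TPM in replicate 1 and 76.1% in replicate 2. The 3 coding transcripts held 42.2% and 18.6% of the TPM, and 22.2% and 10.5% of the expected counts. The full-length coding transcript Tbxas1-201 had 8.57 and 5.54 TPM, Tbxas1-202 had 7.58 and 17.6 TPM, and Tbxas1-205 had 9.11 and 16.0 TPM. Tbxas1-201 was thus lower in replicate 2, while all 3 retained-intron transcripts were higher there. Of the other coding transcripts, Tbxas1-203 (403 bases) had 4.50 TPM from 25.8 counts in replicate 1 and 0 TPM in replicate 2. Tbxas1-206 was higher in replicate 2, at 2.91 and 4.09 TPM.

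Some of the splice sites that these transcripts leave unspliced are shown because these transcripts held most of the Tbxas1 TPM. Each run is 30 bases from GENCODE M21 transcripts, 15 on either side of the exon edge, with the first or last bases of the intron in capitals. Tbxas1-205 keeps the whole intron chr6:39081077-39083692 (2616 bases). Tbxas1-202 runs into the intron chr6:39027955-39071355 (43401 bases) and Tbxas1-204 into chr6:39071448-39080938 (9491 bases), and each covers a part of it. Not shown are chr6:38918555-38919074, partly covered by Tbxas1-202 and Tbxas1-205, and chr6:38982218-39001251, partly covered by Tbxas1-204.
Tbxas1-205, start of the kept intron: ctttgaccctgaaagGTaagtgaattccat
Tbxas1-205, end of the kept intron: tcacctgacccttAGgttcacagcagaggc
Tbxas1-202, start of the intron: ttcatggggaagcacGTaagtacagcgggg
Tbxas1-204, start of the intron: cccaccagctttcagGTatgtctgtggccc

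All 3 introns shown start with GT, and the whole one ends with AG. Reads inside such stretches cannot tell a stable intron-keeping transcript from RNA that was not yet spliced, and for a transcript that covers part of an intron they cannot tell its end from the rest of that intron.

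Alox5 encodes 5-lipoxygenase, which begins leukotriene synthesis, and Alox5ap encodes FLAP, the membrane protein that presents arachidonic acid to it. Alox5 (ENSMUSG00000025701.12, chromosome 6, 116410077 to 116461178, minus strand) had 0.68 and 0.90 TPM, or 0.790 ± 0.156 (SD, n = 2). It rested on 21 counts (exact Poisson 95% interval 13.0 to 32.1) and 24 counts (15.4 to 35.7), and the CPM ratio of 1.41 had an interval of 0.754 to 2.67, so no difference between libraries was detectable at this depth. Its 3 retained-intron transcripts held 97.1% and 100% of that TPM. In the read-based table they held 88.1% and 65.3%, and the coding transcript Alox5-201 held 8.40% and 21.3%. The gene had 0.193 and 0.765 TPM there. In the alignment-based table the full-length coding transcript Alox5-201 had 1.46 and 0 counts, so coding Alox5 RNA was near the limit of detection there in both libraries.

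Alox5ap (ENSMUSG00000060063.9, chromosome 5, 149264767 to 149288153, plus strand) stood at 36.2 TPM in replicate 1 against 32.6 TPM in replicate 2, or 34.4 ± 2.57 (SD, n = 2). The deposited intervals overlapped, and the counts of 740 and 492 gave a CPM ratio of 0.823 (95% interval 0.733 to 0.923). FLAP RNA therefore stood 53.2-fold above Alox5 RNA in replicate 1 and 36.2-fold above it in replicate 2, and the read-based table gave 49.6-fold and 33.7-fold. Coding transcripts held 63.6% and 70.0% of the Alox5ap TPM. The antisense gene Gm19719, with 1.72 and 2.71 TPM, shares 189 exon bases with Alox5ap.

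Ptger2 and Ptger4 encode the prostaglandin E2 receptors EP2 and EP4. Ptger4 (ENSMUSG00000039942.15, chromosome 15, 5206661 to 5244187, minus strand) stood at 11.6 TPM in replicate 1 against 12.6 TPM in replicate 2, or 12.1 ± 0.700 (SD, n = 2). The deposited intervals overlapped, and 1067.9 and 799.46 counts gave a CPM ratio of 0.926 with an interval of 0.844 to 1.02 that held 1. Ptger2 (ENSMUSG00000037759.6, chromosome 14, 44988195 to 45003820, plus strand) had 4.51 and 5.78 TPM, or 5.15 ± 0.898 (SD, n = 2), from 380 and 335 counts. The deposited intervals for Ptger2 were apart and higher in replicate 2, whereas its CPM ratio of 1.09 (0.939 to 1.27) held 1. EP4 RNA exceeded EP2 RNA 2.57-fold and 2.18-fold, and 2.70-fold and 2.06-fold in the read-based table. Ptger4 shares 82 exon bases with Ttc33 (5.47 and 7.48 TPM) and 1015 with the pseudogene Gm15937 (0.33 and 0.27 TPM), both on the opposite strand.

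The receptors also differed in annotated transcript type. Ptger4 has no retained-intron transcript in GENCODE M21, so RNA of its introns could not be counted under that type. Ptger4 was 97.8% and 91.0% coding, whereas 63.2% and 61.4% of the Ptger2 TPM lay in Ptger2-202, a retained-intron transcript. It runs from the upstream exon into the intron chr14:44989808-45001749 (11942 bases) and covers part of it. The start of that intron is shown, as it is where Ptger2-202 departs from the coding form.
Ptger2-202, start of the intron: tccttgcctttcacaGTaagtcacctttgt

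The coding transcript Ptger2-201 had 1.66 and 2.23 TPM, and Ptger2-202 had 2.85 and 3.55 TPM. In both libraries the intron-holding form was the higher of the pair in TPM. Its counts, 208 and 177, were closer to those of the coding form, 172 and 158.

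**Figure D2:**
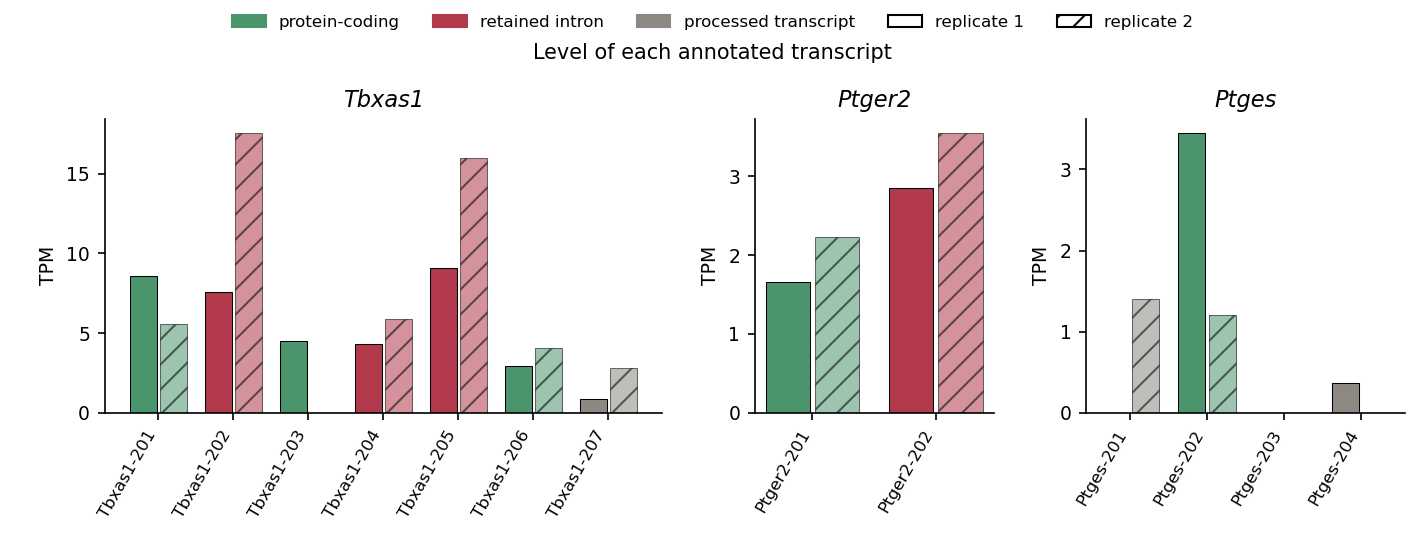
TPM of each annotated transcript of Tbxas1, Ptger2 and Ptges, with solid bars for replicate 1, hatched pale bars for replicate 2 and colour for the annotated type. Tbxas1-202 and Tbxas1-205 are taller in replicate 2 than in replicate 1, Ptger2-202 exceeds Ptger2-201 in both, and Ptges-202 stands at 3.45 TPM in replicate 1 against 1.20 TPM in replicate 2.

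Across the 10 genes, 6 have a retained-intron transcript in GENCODE M21. Of the 5 among these with a mean of 1 TPM or more, 2, Tbxas1 and Ptger2, had 50% or more of their TPM in such transcripts in both libraries, beside 11.1% of 6243 protein-coding genes chosen the same way. Ptgs1 had 34.8% and 33.3%, Pla2g4a had 16.9% and 29.8%, and Pla2g7 had 2.43% and 6.97%. The Ptgs1 share rested on few reads, with 7.13 and 1.52 counts in Ptgs1-202 and 6 and 10 in Ptgs1-205. The median over those 6243 genes was 24.8% and 27.3%. By expected counts, which give long transcripts more weight, the share was 77.6% and 89.1% for Tbxas1, 54.7% and 52.8% for Ptger2 and 9.80% and 7.89% for Ptgs1. In the read-based table Tbxas1 had 48.8% and 55.3%, and Ptger2 had 63.9% and 70.6%, so Tbxas1 passed 50% in 1 library there. Ptgs2 has no retained-intron transcript, and its coding transcript Ptgs2-201 held 100% of the TPM in both libraries. The read-based table gave 36.5% and 49.4% of Ptgs2 to the 358-base coding transcript Ptgs2-202, which had 0 counts in the alignment-based table.

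**Figure D3:**
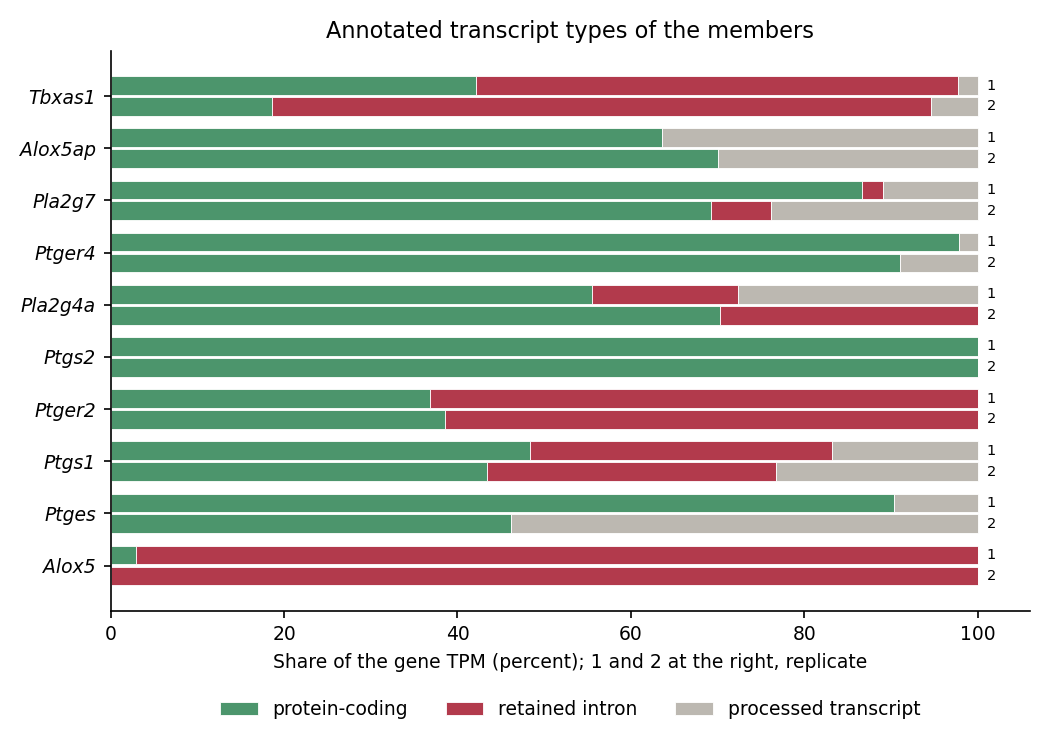
Share of each gene's TPM in protein-coding, retained-intron and processed transcripts, in percent, with the upper bar of each pair for replicate 1 and the lower for replicate 2. Ptgs2 is wholly coding in both libraries, Alox5, Ptger2 and Tbxas1 are mostly retained intron, and the coding share of Ptges is 90.3% in replicate 1 and 46.2% in replicate 2.

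To compare the libraries, log2(TPM + 1) of replicate 1 was subtracted from that of replicate 2, and the median of 0.29 over the 12952 genes with a mean of 1 TPM or more was then taken off. A gene was called when it passed 2-fold, and 9 of the 10 members could be called. None of the 9 passed 2-fold lower in replicate 2, as 4.51% of all genes did, and none passed 2-fold higher, as 2.78% did. Differences ran from -0.77 for Pla2g4a and -0.71 for Ptges to 0.18 for Ptgs2, with a median of -0.18, and the central 95% of all genes ran from -1.30 to 1.04. Tbxas1 (0.16), Ptgs1 (0.09) and Ptger2 (0.01) lay just above 0, and Ptger4 (-0.18), Pla2g7 (-0.20) and Alox5ap (-0.44) below it. Without centring, Ptger4 and Pla2g7 turned to 0.11 and 0.09, so the side of 0 on which they lay depended on the scaling.

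On TMM-scaled counts, which take no account of transcript length, 1 member passed 2-fold lower, beside 3.74% of all genes, and none passed higher, beside 2.43%. It was Ptges, at -1.52 on the log2(CPM + 1) scale. The 95% counting interval of the CPM ratio lay wholly above 1 for Ptgs1, Ptgs2 and Tbxas1, 3 of 9, beside 38.5% of all genes. It lay wholly below 1 for Ptges, Alox5ap, Pla2g4a and Pla2g7, 4 of 9, beside 26.2%. With TMM scaling the interval of Ptgs1 held 1 (0.973 to 1.58) and that of Ptger4 lay below it (0.775 to 0.933). The deposited TPM intervals did not overlap and were higher in replicate 2 for Ptgs2, Ptger2 and Tbxas1, 3 of 9, beside 39.1% of all genes. They were lower for 0 of 9, beside 8.43%.

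**Figure D4:**
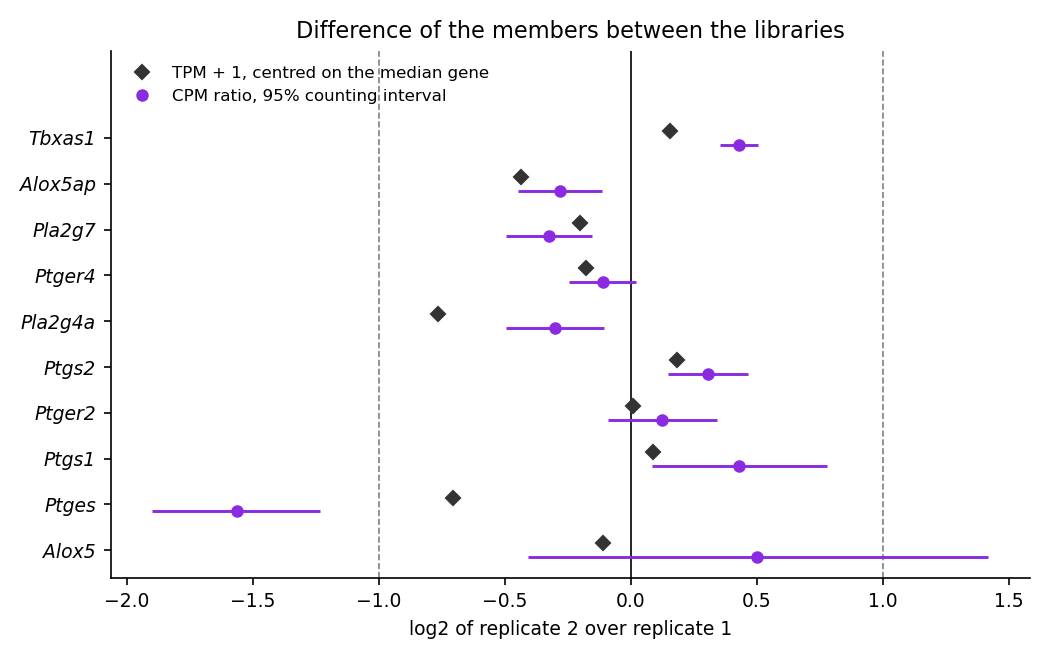
Difference of each gene as log2 of the value in replicate 2 divided by that in replicate 1, with diamonds for the centred difference of TPM + 1, circles for the CPM ratio and lines for its 95% counting interval. No diamond passes the dashed lines at 2-fold, and the circle of Ptges lies left of them.

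The rest of the eicosanoid pathway was taken from 7 lists with 68 other genes. At 1 TPM or more in both libraries were 37 of the 68, beside 43.7% of protein-coding genes, while 14 had 0 counts in both. Of 38 that could be called, 2 were over 2-fold lower in replicate 2, beside 4.51% of all genes. Another 2 were over 2-fold higher, beside 2.78%. The median difference of the 38 was -0.10. On TMM-scaled counts 1 of these 4 calls was left, Fpr2. Among 16 genes that release or reattach arachidonic acid, 9 reached 1 TPM in both. They were led by the lipase Abhd12 (70.8 and 66.4 TPM), the lysosomal phospholipase Pla2g15 (50.7 and 57.7 TPM) and the acyl-CoA synthetase Acsl4 (15.5 and 23.2 TPM). The secreted phospholipase Pla2g5 passed 2-fold higher, at 0.10 and 2.02 TPM, on 6 and 12 counts, and lost the call on TMM-scaled counts (0.36).

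Of the other prostanoid synthases, 6 of 8 reached 1 TPM in both libraries. Hpgds, the hematopoietic prostaglandin D synthase, stood at 119 TPM in replicate 1 against 171 TPM in replicate 2, above every one of the 10 members in each library. Its level was 3.14-fold and 3.30-fold that of Tbxas1. The cytosolic prostaglandin E synthase Ptges3 had 12.5 and 15.8 TPM and the aldose reductase Akr1b3 had 9.65 and 9.29 TPM. Ptgds, the lipocalin-type prostaglandin D synthase, and Ptgis, the prostacyclin synthase, had 0 counts in both. Among Hpgds, Tbxas1, Ptges3 and Ptges, RNA levels over all transcripts of a gene ran in that order in both libraries.

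Beside EP2 and EP4, 2 of 7 other prostanoid receptors reached 1 TPM in both libraries and 4 had 0 counts in both. The prostacyclin receptor Ptgir had 4.45 and 4.27 TPM. The other receptor past 1 TPM was Ptger1, for EP1, whose level is not given. Ptger3, for EP3, had 0.33 and 0.73 TPM. The thromboxane receptor Tbxa2r had 0 counts in both libraries, whereas Tbxas1, its ligand's synthase, was the highest of the 10 genes. Retained-intron transcripts held 55.5% and 76.1% of that Tbxas1 level.

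Past 5-lipoxygenase, the leukotriene A4 hydrolase Lta4h, which makes leukotriene B4, had 10.8 and 12.6 TPM. That was 15.9-fold and 14.0-fold the Alox5 level. Ltc4s, the leukotriene C4 synthase, had 0.49 and 0.26 TPM on 7 and 2 counts. Alox15, the 12/15-lipoxygenase, had 0 counts in both libraries. Of the 15 genes in that list 4 reached 1 TPM in both, led by Cotl1, a protein that binds 5-lipoxygenase and actin (55.4 and 32.0 TPM), and the dipeptidase Dpep2 (21.5 and 18.4 TPM). Cotl1 passed 2-fold lower in replicate 2 after centring, at -1.06, but not without centring (-0.77) or on TMM-scaled counts (-0.82).

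Of 6 leukotriene and lipoxin receptors, 3 reached 1 TPM in both libraries. The cysteinyl leukotriene receptors Cysltr1 and Cysltr2 had 5.61 and 9.52 TPM, and 6.25 and 6.72 TPM. The formyl peptide and lipoxin receptor Fpr2 stood at 23.7 TPM in replicate 1 against 10.6 TPM in replicate 2, over 2-fold lower at -1.38, and at -1.44 on TMM-scaled counts. It belongs to a family of similar genes among which reads may be split.

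All 7 platelet-activating factor genes reached 1 TPM in both libraries. Its receptor Ptafr had 72.1 and 72.7 TPM, about level between libraries before centring and higher than Pla2g7 in each. After centring Ptafr lay at -0.28, and on TMM-scaled counts at -0.35, from 7388 and 5086 counts. Pafah1b1, a subunit of an intracellular acetylhydrolase, had 23.8 and 34.0 TPM, and Lpcat2, which makes platelet-activating factor, had 22.6 and 22.4 TPM. Of 9 genes for eicosanoid breakdown and transport, 6 reached 1 TPM in both, led by the exporter Abcc1 (14.2 and 17.1 TPM), the prostaglandin reductase Ptgr2 (9.12 and 13.6 TPM) and the exporter Abcc4 (5.42 and 4.73 TPM). The epoxide hydrolase Ephx1 passed 2-fold higher in replicate 2, at 1.05 and 4.24 TPM on 34 and 52 counts, but not on TMM-scaled counts (0.54). Hpgd, the enzyme that inactivates prostaglandins, had 0 counts in both.

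**Figure D5:**
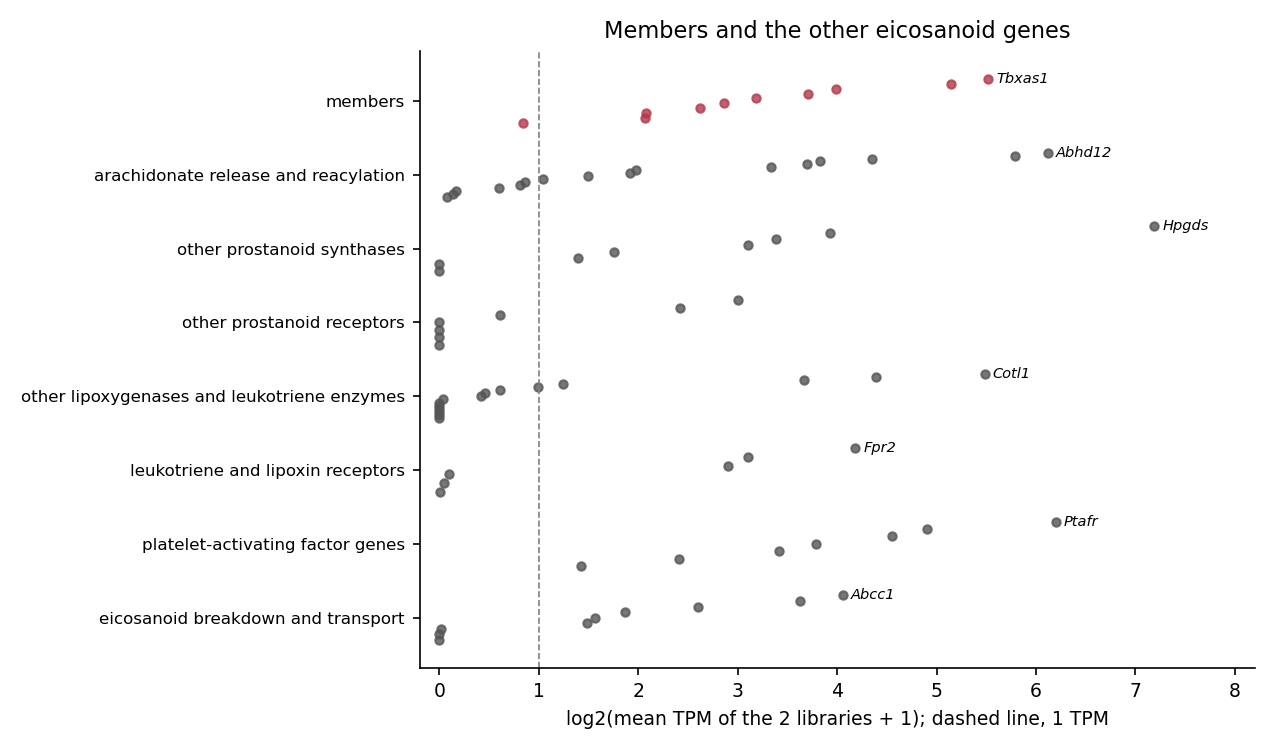
Mean level of each gene as log2(mean TPM + 1), with the 10 members in red, the 68 other eicosanoid genes in grey by list and the highest gene named in each list except the other prostanoid receptors. Hpgds lies right of every member, at 119 and 171 TPM.

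Markers of the labelled cell type were present, with 10 of 10 macrophage markers at 1 TPM or more in both libraries, led by Lyz2 (1231 and 1590 TPM). As Tbxas1, Ptgs1 and Alox5 are also known from platelets, mast cells and neutrophils, markers of those cells were read beside them. Of the platelet and megakaryocyte markers 1 of 10 reached 1 TPM in both, and the list summed to 18.3 TPM in replicate 1 and 30.6 TPM in replicate 2. Pf4 made up 16.2 and 26.3 TPM of this. Treml1 had 29 and 54 counts (0.99 and 2.71 TPM) and Itgb3 had 49 and 59 (0.29 and 0.52 TPM). Itga2b had 15 and 17 counts but was lower in replicate 2 in TPM, at 0.56 and 0.26. Ppbp, Gp9, Gp1ba, Gp1bb and Gp6 had at most 9 counts in a library. Tbxas1 and Ptgs1 were higher in replicate 2 as well, as was the median gene before centring, by 0.29 in log2(TPM + 1). After centring, Tbxas1 lay at 0.16 and Ptgs1 at 0.09. The part of platelets or megakaryocytes in the levels of Tbxas1 and Ptgs1 was not tested. Mast cell and basophil markers summed to 5.0 and 1.48 TPM, with 0 of 10 at 1 TPM in both and 6 at 0 counts. Hdc, at 4.48 and 0.40 TPM, made up most of that sum in replicate 1. Kit went the other way, at 0.48 and 0.93 TPM on 59 and 73 counts, as did Ms4a2 on 1 and 6 counts. Ptges, like Hdc but unlike Kit and Ms4a2, was lower in replicate 2, and a link with Hdc was not tested. Neutrophil markers summed to 3.02 and 4.93 TPM with 1 of 10 at 1 TPM (S100a9), lymphoid to 0.70 and 0.92 with 0 (led by Cd79b), stromal to 1.81 and 2.78 with 1 (Pecam1), and erythroid to 2.07 and 2.85 with 0 (led by Alas2).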

How the data were processed

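Ribosomal RNA-depleted nuclear RNA was quantified in 2 libraries of 1 group. Per the text files the authors deposited beside the tables, values were made on mm10 with GENCODE M21, from a transcriptome alignment or, for a further transcript table, from the reads. The authors deposited expected counts (estimated reads per gene or transcript, not normalised) and TPM (counts per effective length, brought to a common total), per the file headers. The deposited isoform percent is a transcript's share of its gene's TPM, per the file headers. The deposited bounds of the TPM interval, a per-gene signal range from the quantifier, have no stated level. Column names are those of RSEM and kallisto, but the sources used here give no aligner, quantifier, version or strand setting. Entries with numeric identifiers and spike-ins, 0.581% and 0.434% of counts, were left out.

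The members and lists were chosen with earlier results of these data known. Named genes were the members, the 3 highest of each other list by mean TPM, its genes past 2-fold at 1 TPM or more, 11 fixed pathway genes, genes overlapping a member (those with exon overlap and 1 TPM or more, or a pseudogene sharing its sequence, are printed), the top gene of each marker list and transcripts with 10% or more of a member's TPM. The platelet markers other than Pf4, the mast cell markers other than Hdc and transcripts under that share were named after their values were seen. The level of Ptger1 is not reported here. The difference between libraries used a pseudocount of 1. Count ratios carry exact binomial 95% intervals, and a count of 0 was read as up to 3 counts. Expected counts were rounded for intervals and TMM factors. Rounded counts of 14355 genes differed by more than sampling noise (chi-square per degree of freedom 91.2), so the libraries were not 1 library deposited again. Pearson's r of log2 TPM was 0.914 across 12952 genes, which are not replicates. RefSeq promoters (GRCm38.p6) matched 9 of 10 members. Motifs were searched in 250 bases before the gene start, and in 300 bases as a choice made after seeing the data. R 4.3.3 with edgeR 4.0.16 gave the TMM factors. All else was done in Python 3.11.15, using scipy 1.17.1 for intervals, pandas 2.3.3 and numpy 2.4.6 for tables, and matplotlib 3.10.9 for figures.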

Additional observations from a re-analysis of the deposited data

How the results depend on the processing

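No paired analysis was possible because there was 1 group. The number of members at 1 TPM or more in both libraries was 9, and ranged from 8 in the read-based table to 10 at a threshold of 0.5 TPM. Leaving out either replicate kept it at 9. The number over 2-fold higher in replicate 2 was 0 under all 9 alternatives tried, and the number over 2-fold lower was 0 under 8 of them and 1 (Ptges) with TMM-scaled counts. The number with 50% or more of TPM in retained-intron transcripts was 2, moved to 1 in the read-based table, where Tbxas1 had 48.8% in replicate 1, and to 3 with no filter, which let in Alox5. Those alternatives, and those of the 37 other eicosanoid genes (30 to 41), were chosen after seeing the data. Of the 2 and 2 other eicosanoid genes over 2-fold lower and higher in replicate 2, also tried after seeing the data, 1 and 0 were left with a pseudocount of 5, the read-based table or TMM-scaled counts. Without centring or without a filter 1 was left lower, and with at least 10 counts in each library 1 higher. Levels of 7 of the 10 members moved by more than 1 SD in the read-based values. The median ratio of these to the alignment-based TPM was 0.312 in replicate 1 and 0.745 in replicate 2, and the cause was not tested. There 4 differences were opposite in sign to the values reported, Pla2g4a (0.34), Alox5ap (0.06), Ptgs1 (-0.13) and Ptger2 (-0.05). Depth limits Alox5, Ltc4s, Pla2g5, Ptges-201, Tbxas1-203 and the retained-intron transcripts of Ptgs1, each on fewer than 30 counts in a library.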
